A study of Homo sapiens with 18 samples.

Results

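Metallothioneins are small cysteine-rich proteins that bind zinc and copper. Followed here are MT1E, MT1F, MT1G, MT1M, MT1X and MT2A, 6 of the 58735 genes counted. They were chosen by name, with earlier results of these data known. They were measured by RNA sequencing in human lung adenocarcinoma cells whose level of the cohesin subunit RAD21 had been changed, with 18 libraries in 6 groups of 3. A549 and H358 are established lines grown from human lung tumours. In both, RAD21 was knocked down by a lentiviral short hairpin RNA (shRAD21), with control-vector cells for comparison (shNC), in libraries that the labels place in a batch of April 2024. In A549 alone, RAD21 was overexpressed (RAD21OE) beside cells given an empty vector (EV), in a batch of July 2024. All 6 groups were kept in the same medium with serum, and no group is labelled as treated with a metal. The hairpin's target site, whether cells were cloned, and whether the replicates were separate cultures are not given in the sources used here, so the spread between replicates may be technical in part.

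Metallothioneins hold zinc and copper ions in clusters of cysteine thiols. They buffer free zinc inside the cell and bind toxic metals such as cadmium. When free zinc rises, the zinc finger factor MTF1 enters the nucleus and binds metal response elements in the promoters of metallothionein genes and of the zinc exporter SLC30A1. Oxidants and glucocorticoids also raise several of these genes, and DNA methylation is known to silence single members in tumours.

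The 6 genes lie in 1 cluster on chromosome 16 (GRCh38, GENCODE 29). MT2A, the widely expressed member, spans 56608199 to 56609497 on the plus strand. MT1E follows at 56625475 to 56627112, MT1M at 56632233 to 56633986 and MT1F at 56657694 to 56660698, each on the plus strand. MT1G lies on the minus strand at 56666731 to 56668065, and MT1X on the plus strand at 56682424 to 56684196. Each coding sequence has 186 bases in 3 coding exons and encodes 61 amino acids, of which 20 (32.8%) are cysteines. The reference coding sequences of the 4 members with more than 1 count in a library are shown because their likeness bears on how reads could be told apart, with cysteine codons in capitals. Introns are left out, and the coding parts lie on the plus strand of GRCh38 within chr16:56608656-56609354 (MT2A), chr16:56625852-56626971 (MT1E), chr16:56658059-56659164 (MT1F) and chr16:56682541-56684049 (MT1X).

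MT2A: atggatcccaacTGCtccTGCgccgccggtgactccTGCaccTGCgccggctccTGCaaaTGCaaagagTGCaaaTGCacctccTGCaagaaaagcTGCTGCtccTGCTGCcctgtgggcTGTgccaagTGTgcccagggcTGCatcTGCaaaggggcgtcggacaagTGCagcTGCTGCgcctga
MT1E: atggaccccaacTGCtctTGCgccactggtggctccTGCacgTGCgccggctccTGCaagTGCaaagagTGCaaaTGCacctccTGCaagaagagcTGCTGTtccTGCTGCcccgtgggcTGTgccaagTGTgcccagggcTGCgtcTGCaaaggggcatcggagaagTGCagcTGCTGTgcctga
MT1F: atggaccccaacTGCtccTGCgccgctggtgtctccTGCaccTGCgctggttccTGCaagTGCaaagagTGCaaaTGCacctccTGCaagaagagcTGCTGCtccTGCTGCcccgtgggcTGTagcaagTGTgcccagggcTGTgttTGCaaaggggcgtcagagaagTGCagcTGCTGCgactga
MT1X: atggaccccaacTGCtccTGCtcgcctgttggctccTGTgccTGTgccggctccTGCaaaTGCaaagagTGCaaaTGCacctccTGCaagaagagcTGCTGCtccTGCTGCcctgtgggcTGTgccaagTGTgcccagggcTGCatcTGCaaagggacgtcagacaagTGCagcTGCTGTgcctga

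The cysteine codons sit at the same places in all 4 sequences, and most of the differing bases lie outside them. MT2A shared 92.5% of its coding bases with MT1E, 91.4% with MT1F and 92.5% with MT1X, and over all pairs of the 6 members the identity ran from 88.7% (MT1F with MT1X) to 95.2% (MT1G with MT2A). Over whole transcripts the members were easier to separate. Of the distinct stretches of 50 bases in the transcripts of each gene, 3.02% of those of MT2A occurred in another gene, 1.22% for MT1F, 7.1% for MT1E and 18.3% for MT1X. MT1X shares 18.1% of its exon bases with AC026461.1, annotated on the same strand. The sources used here do not give how reads that fit several genes were counted, so part of the counts of these near-identical genes, MT1X above all, is uncertain.

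Promoter sequence was at hand for MT2A and MT1X, 2 of the 6 members. The 250 bases before the RefSeq start of each gene (GRCh38.p14) are shown because they hold the letters that MTF1 is known to read. Capitals mark the core of the metal response element, searched on both strands as TGCACNC and as TGCGCNC. The MT2A stretch is chr16:56608334-56608583 and the MT1X stretch chr16:56682220-56682469, both on the plus strand. GENCODE 29 also lists an MT2A transcript whose first exon begins further upstream and covers the MT2A stretch.

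MT2A: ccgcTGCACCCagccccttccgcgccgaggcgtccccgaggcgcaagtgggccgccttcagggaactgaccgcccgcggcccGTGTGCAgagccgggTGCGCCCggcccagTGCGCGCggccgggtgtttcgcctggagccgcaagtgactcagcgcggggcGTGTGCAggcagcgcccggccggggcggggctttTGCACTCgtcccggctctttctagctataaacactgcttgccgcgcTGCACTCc
MT1X: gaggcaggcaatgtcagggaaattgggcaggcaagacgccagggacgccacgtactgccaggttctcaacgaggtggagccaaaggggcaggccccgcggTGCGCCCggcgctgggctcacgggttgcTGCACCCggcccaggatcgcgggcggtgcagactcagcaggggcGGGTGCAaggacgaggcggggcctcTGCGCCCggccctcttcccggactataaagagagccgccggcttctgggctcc

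MT2A held 7 core matches in this window, 5 of TGCACNC and 2 of TGCGCNC. MT1X held 4, with 2 of each form. Of 35097 promoters of the same length, 24.8% held at least 1 match, 0.368% at least 4 and 0.0313% at least 7. TGCACNC alone was in 9.86% of promoters and TGCGCNC in 16.8%. The zinc exporter SLC30A1, another target of MTF1, held 1 match, and MTF1 itself held 0. Both MT2A and MT1X also held 1 match to the antioxidant response element core TGACNNNGC, which 10.9% of promoters hold, and 2 to the GC box GGGCGG, which 42.6% hold. In MT1X, 1 of those GC boxes shares bases with a metal response core. Neither held the E-box CACGTG, which is in 6.34% of promoters. A match is a string of letters and not a measured binding site.

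Depth ran from 15155077 to 19277568 counts in the 12 knockdown libraries and from 13024640 to 14276335 in the 6 overexpression libraries. RAD21 followed its labels. On the log2 scale it fell by 1.08 in A549 shRAD21 and by 0.51 in H358 shRAD21, and it was 2.85 higher in RAD21OE (edgeR adjusted p = 2.99e-08, 0.000671 and 2.9e-10). Replicate 3 of A549 shRAD21 and replicate 3 of RAD21OE stood apart from the other libraries of their groups, with a median absolute log2 difference over genes of 0.231 to 0.313 against 0.106 to 0.146 for the other 14 pairs of replicates. The changes of MT2A, MT1F and MT1X in A549 are therefore also given without the library concerned. Without it, RAD21 was 0.97 lower in A549 shRAD21 (log2 change -0.97) and 2.92 higher in RAD21OE. Of the calls on other genes picked for naming, 31 of 31 in the A549 knockdown and 24 of 25 in the overexpression stayed past the test without it, and the zinc importer SLC39A1 in RAD21OE did not (adjusted p = 0.055).

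Which metallothioneins a line used at all was the first thing the counts showed. MT2A was the leading member in every group, and MT1E was counted in H358 but not once in A549. Levels are given as CPM, counts per 1000000 after TMM scaling, for each library and then as mean ± SD (n = 3). In H358 shNC the 3 libraries gave 534.6, 503.5 and 419.7 CPM of MT2A (485.9 ± 59.5), and in A549 shNC 29.58, 30.51 and 24.66 CPM (28.25 ± 3.15). All 3 H358 libraries lay far above all 3 of A549. The difference was 17.2-fold, or 4.10 ± 0.13 (SE) on the log2 scale (edgeR adjusted p = 2.1e-15). In bulk RNA, a change in the number of cells that express a gene and a change in RNA per cell cannot be told apart.

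MT1E, a member of the MT1 group with the same 20 cysteines, gave 82.38, 77.37 and 67.5 CPM in H358 shNC (75.75 ± 7.57), from 1484, 1614 and 1128 counts. It had 0 counts in all 12 A549 libraries. With 3 counts as the limit that a count of 0 allows over a group, its level in A549 shNC was at most 0.066 CPM, so MT1E was at least 1150-fold higher in H358 shNC. MT1E passed the filter on low counts through H358 alone, so its call between the lines adds nothing to this description.

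MT1F and MT1X were lower than MT2A in both lines and higher in H358. MT1F gave 10.6, 9.97 and 10.41 CPM in H358 shNC (10.33 ± 0.324) and 0.793, 1.472 and 0.9919 CPM in A549 shNC (1.086 ± 0.349). This 9.5-fold difference (log2 3.25 ± 0.21 SE, edgeR adjusted p = 8.51e-11) rested on 13, 22 and 14 counts in A549. MT1X gave 24.76, 25.5 and 19.69 CPM in H358 shNC (23.32 ± 3.16) and 3.782, 5.018 and 4.535 CPM in A549 shNC (4.445 ± 0.623), a 5.26-fold difference (log2 2.4 ± 0.18 SE, edgeR adjusted p = 8.35e-10). The ranges of the lines did not overlap for MT2A, MT1F or MT1X. With 3 libraries a side, such separation has a probability of 0.1 where groups do not differ. The share of all genes with separate ranges was not counted, here or in the comparisons below. MT2A, MT1F and MT1X were each called higher in H358, among 18939 genes of which 76% were called and 39.1% were called higher, so a call as such was common between these lines.

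MT1G and MT1M were not detectable. MT1M had 0 counts in all 18 libraries, and MT1G had 1 count in RAD21OE replicate 3 and 0 elsewhere. A count of 0 over a group allows at most 0.054 CPM (H358 shNC) to 0.0743 CPM (EV), and these limits cover counting error only. Neither gene was tested.

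Per kilobase of exon, the order in H358 shNC was MT2A at 374, MT1E at 72, MT1X at 13.2 and MT1F at 5.47 CPM per kilobase. In A549 shNC it was MT2A at 21.7, MT1X at 2.51 and MT1F at 0.575, with MT1E at 0. MT2A took 81.6% of the counts of the 6 genes in H358 shNC and 83.8% in A549 shNC. MT1E took 12.7% in H358. The share of MT1X was 3.93% in H358 shNC and 13.1% in A549 shNC, and that of MT1F 1.72% and 3.18%.

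**Figure D1:**
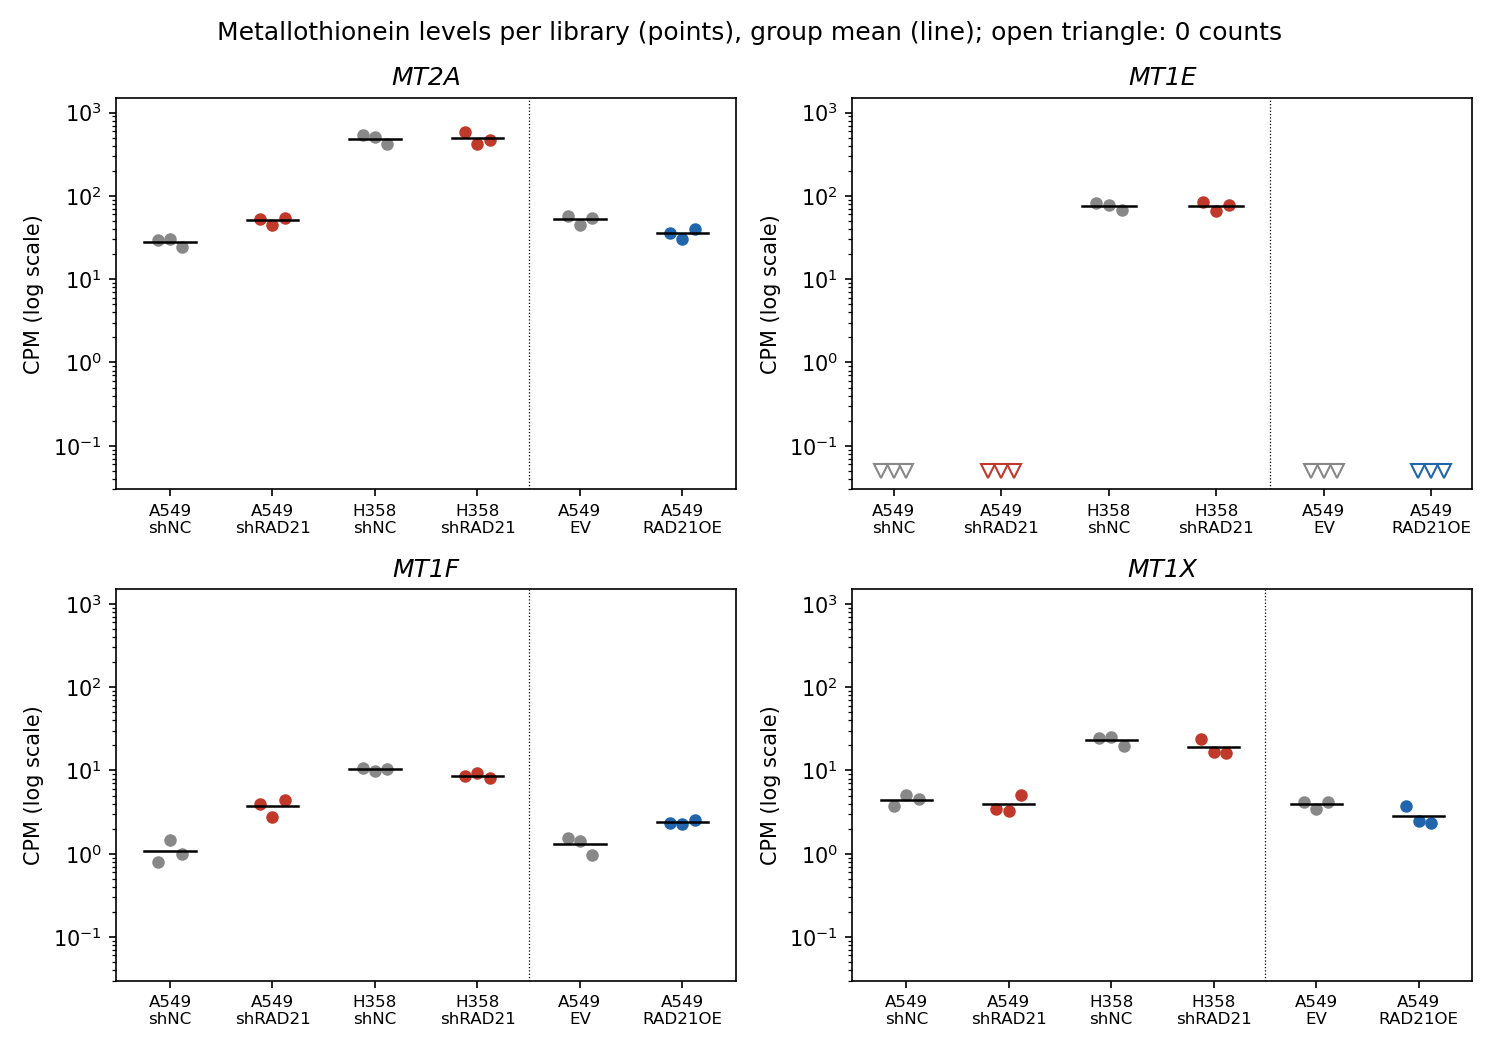
Levels of MT2A, MT1E, MT1F and MT1X in CPM (log axis) in each of 18 libraries; points are libraries, lines are group means, open triangles mark libraries with 0 counts, and the dotted line separates the knockdown table from the overexpression table, whose levels are not compared. MT2A lies between 419.7 and 578.6 CPM in the 6 H358 libraries and at 55 CPM or lower in the 6 A549 libraries of the knockdown, and MT1E has 0 counts in every A549 library.

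The family also holds 15 other genes and pseudogenes by name, and the 6 members made up 97.4% to 99.9% of all metallothionein counts in each group. MT1A, a zinc and cadmium binding member of the same cluster, had 14 counts in A549 shNC, 32 in A549 shRAD21, 35 in EV and 12 in RAD21OE, summed over 3 libraries, and 0 in H358. The lines thus differed in opposite ways for MT1A and MT1E. MT1L had 8 and 11 counts in H358 shNC and shRAD21 and 0 in both A549 groups of the knockdown, and MT1JP had 13 and 2 against 0 and 0. None of the 11 other metallothionein genes on the fixed list passed the filter on low counts.

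Knockdown of RAD21 in A549 raised MT2A and MT1F, while MT1X did not pass the test. MT2A rose from 29.58, 30.51 and 24.66 CPM in shNC (28.25 ± 3.15) to 52.97, 44.58 and 55 CPM in shRAD21 (50.85 ± 5.53). The lowest shRAD21 library lay above the highest shNC library. The change was 1.8-fold (log2 0.85 ± 0.13 SE, edgeR adjusted p = 6.48e-05). Without replicate 3 of shRAD21 it was 0.79 on the log2 scale (adjusted p = 8.97e-08).

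MT1F changed more, from a lower level. It rose from 0.793, 1.472 and 0.9919 CPM (1.086 ± 0.349) to 3.976, 2.794 and 4.362 CPM (3.71 ± 0.817), from 13, 22 and 14 counts to 65, 44 and 64. Again every shRAD21 library lay above every shNC library. The change was 3.41-fold (log2 1.77 ± 0.24 SE, edgeR adjusted p = 2.31e-05), and 1.65 on the log2 scale without replicate 3 of shRAD21 (adjusted p = 1.03e-06).

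MT1X, whose promoter window holds 4 metal response cores, gave 3.782, 5.018 and 4.535 CPM in shNC (4.445 ± 0.623) and 3.486, 3.302 and 5.112 CPM in shRAD21 (3.967 ± 0.996). The groups overlapped, and the log2 difference was -0.17 ± 0.22 SE (edgeR adjusted p = 0.631). Replicate 3 was the highest of the shRAD21 libraries, and without it the difference was -0.38 (adjusted p = 0.154). MT1E stayed at 0 counts. Of the 3 tested members with counts in A549, 2 were called, both higher, where 25.2% of the 18939 tested genes were called and 14.4% were called higher.

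In H358, knockdown of RAD21 left no metallothionein past the test, where 8.4% of tested genes were called. MT2A gave 578.6, 423.7 and 466.2 CPM in shRAD21 (489.5 ± 80.1) beside 485.9 ± 59.5 in shNC, and the groups overlapped over most of their range (log2 0.01 ± 0.11 SE, edgeR adjusted p = 0.986). MT1E gave 85.01, 66.27 and 78.33 CPM (76.54 ± 9.5) beside 75.75 ± 7.57, also with overlap (log2 0.01 ± 0.1 SE, adjusted p = 0.972). For both genes the sign of the difference depended on single libraries: without replicate 1 of shRAD21 it was -0.13 for MT2A and -0.07 for MT1E, and without replicate 3 of shNC -0.09 and -0.06.

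The less abundant members lay slightly lower after knockdown in H358, within what the test allows. MT1F gave 8.558, 9.418 and 8.074 CPM (8.683 ± 0.68), all below the 3 shNC libraries, yet the log2 difference of -0.25 ± 0.15 SE did not pass (edgeR adjusted p = 0.364). MT1X gave 23.55, 16.81 and 16.26 CPM (18.87 ± 4.06), overlapping with shNC (log2 -0.31 ± 0.15 SE, adjusted p = 0.246). Fitted on the 6 H358 libraries alone, MT1X passed (adjusted p = 0.0429). No member was called at an adjusted p under 0.05 by edgeR, DESeq2 or limma-voom on the 12 libraries, and none had an unadjusted p under 0.05 in the edgeR fit.

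**Figure D2:**
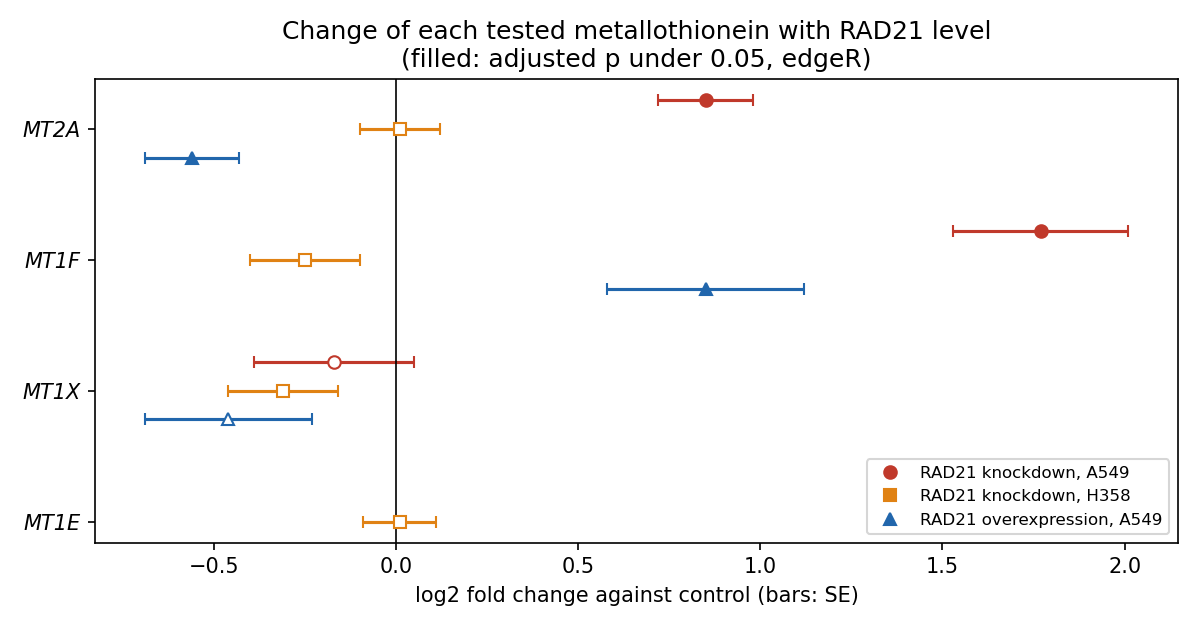
Log2 fold change against the control group for each tested metallothionein (horizontal axis; bars are SE), by comparison; filled symbols passed an adjusted p of 0.05 in edgeR. MT2A and MT1F are higher after knockdown in A549, no member passes in H358, and with overexpression MT2A is lower and MT1F higher.

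The difference between the lines in their response to knockdown was tested in the same fit, as the H358 change minus the A549 change. It was -2.02 ± 0.29 SE on the log2 scale for MT1F (edgeR adjusted p = 9.02e-05) and -0.84 ± 0.17 SE for MT2A (adjusted p = 0.00205). Without replicate 3 of A549 shRAD21 these were -1.90 and -0.78 (adjusted p = 1.05e-06 and 3.52e-06). MT1X differed by -0.14 ± 0.27 SE (adjusted p = 0.787), and by 0.07 without that library. For MT1E no difference can be formed, since A549 had no counts. So 2 of the 3 members with a value were called, where 17.6% of all tested genes were. RAD21 itself fell less in H358: the difference of its changes was 0.57 ± 0.12 SE (edgeR adjusted p = 0.00228). What the depth of the knockdown contributes to the difference between the lines was not tested. After knockdown MT2A in A549 (50.85 ± 5.53 CPM) was still far below its level in H358 without it (485.9 ± 59.5 CPM).

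Overexpression of RAD21 in A549 lowered MT2A and raised MT1F. MT2A fell from 57.73, 44.81 and 54.8 CPM in EV (52.44 ± 6.77) to 36.24, 29.98 and 40.24 CPM in RAD21OE (35.49 ± 5.17). The highest RAD21OE library lay below the lowest EV library. On the log2 scale MT2A fell by 0.56 ± 0.13 SE, to 0.677 of the EV level (edgeR adjusted p = 0.00604), and by 0.66 without replicate 3 of RAD21OE (adjusted p = 1.42e-05).

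MT1F rose from 1.546, 1.441 and 0.9549 CPM in EV (1.314 ± 0.315) to 2.331, 2.248 and 2.547 CPM in RAD21OE (2.375 ± 0.154). The groups did not overlap, and the change was 1.8-fold (log2 0.85 ± 0.27 SE, edgeR adjusted p = 0.0344). The counts were few, 21, 19 and 13 in EV and 33, 30 and 35 in RAD21OE. The call was lost on leaving out any single library of the 6, with an adjusted p of 0.0532 (without RAD21OE replicate 1) to 0.134 (without EV replicate 3), and 0.0618 without RAD21OE replicate 3. It was also lost in DESeq2's Wald test (adjusted p = 0.0918). MT1X gave 4.124, 3.488 and 4.187 CPM in EV (3.933 ± 0.387) and 3.744, 2.473 and 2.329 CPM in RAD21OE (2.849 ± 0.779), with overlap (log2 -0.46 ± 0.23 SE, edgeR adjusted p = 0.15), and it passed only without RAD21OE replicate 1 (adjusted p = 0.0399).

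In all, 2 of the 3 members tested in the overexpression were called, 1 higher and 1 lower. Of the 15462 genes tested there, 27.8% were called, 14.1% higher and 13.7% lower. Each against its own control, MT2A therefore moved in opposite directions with less and with more RAD21 in A549. MT1F was higher in both, on weaker evidence in the overexpression. The knockdown and the overexpression have separate controls and come from separate batches. MT2A averaged 28.25 CPM in shNC and 52.44 CPM in EV, from separate fits. The levels of the 2 experiments therefore do not form a dose series of RAD21.

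The balance between MT2A and MT1F moved with both changes of RAD21 in A549. The ratio of their CPM averaged 27.6 in shNC (20.7 to 37.3) and 14 in shRAD21 (12.6 to 16). It averaged 41.9 in EV (31.1 to 57.4) and 14.9 in RAD21OE (13.3 to 15.8). In each experiment the 3 libraries with altered RAD21 lay below the 3 controls. The ratio restates the changes of the 2 genes given above and was not tested. In the A549 controls it rests on 13 to 22 counts of MT1F a library. Without replicate 3 the means were 14.6 in shRAD21 and 14.4 in RAD21OE. In H358 it was 47.1 in shNC (40.3 to 50.5) and 56.8 in shRAD21 (45 to 67.6), and the groups overlapped.

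The summed level of the 6 genes followed MT2A. It was 33.78 ± 3.42 CPM in A549 shNC and 58.53 ± 7.1 CPM in A549 shRAD21, and no library of one group reached the other. In H358 it was 595.3 ± 70 CPM in shNC and 593.6 ± 92.3 CPM in shRAD21. In the overexpression it was 57.69 ± 7.1 CPM in EV and 40.73 ± 5.42 CPM in RAD21OE. Without replicate 3 the sum averaged 55.55 CPM in A549 shRAD21 and 38.51 CPM in RAD21OE. The share of MT1F in the sum went from 3.18% to 6.33% with knockdown and from 2.27% to 5.82% with overexpression in A549, while that of MT1X went from 13.1% to 6.73% and from 6.82% to 7.01%. In H358 the share of MT1E was 12.7% and 12.9%.

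**Figure D3:**
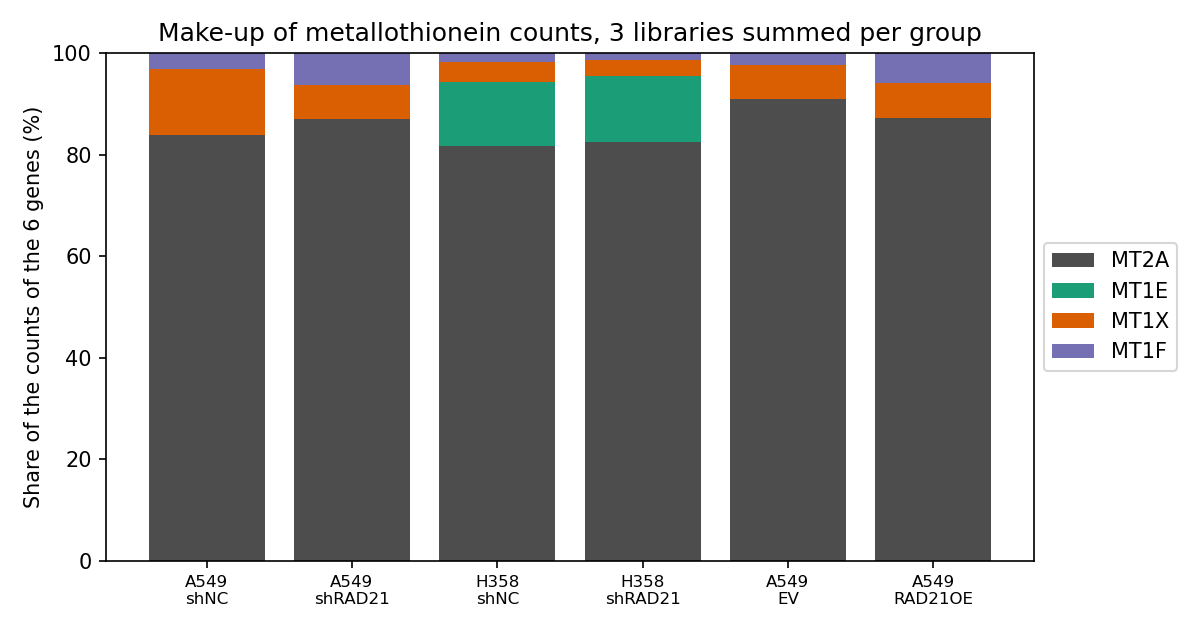
Share of each gene (vertical axis, percent) in the counts of the 6 metallothioneins, with the 3 libraries of a group summed. MT2A holds 81.6% to 90.9% in every group, MT1E appears only in the H358 bars (12.7% and 12.9%), and the MT1F segment is larger in both A549 groups with altered RAD21 than in their controls.

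Genes that sense, export and import zinc were followed from fixed lists. Over all tested genes, 25.2% were called in the A549 knockdown, 8.4% in the H358 knockdown and 27.8% in the overexpression. Among MTF1 and the zinc exporters, 8 of 11 genes were tested in the knockdown. In A549 shRAD21, 3 rose and 1 fell, with a median log2 change of 0.2. SLC30A7, which loads zinc into the secretory pathway, rose by 0.49 ± 0.11 SE (edgeR adjusted p = 0.00403). MTF1 gave 21.84, 19.34 and 22.04 CPM in shNC and 24.04, 26.86 and 30.19 CPM in shRAD21, without overlap, a log2 rise of 0.36 ± 0.1 SE (adjusted p = 0.0133) that was lost without shNC replicate 2 (0.0764) and on the 6 A549 libraries alone (0.0853). SLC30A1, the plasma membrane exporter that MTF1 controls, was at -0.06 ± 0.07 SE (adjusted p = 0.592). MTF1 RNA stood higher beside MT2A and MT1F, while SLC30A1 did not pass. Whether MTF1 had a part in the change of MT2A and MT1F was not tested.

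In H358 shRAD21 none of these 8 genes was called, with a median of -0.09. MTF1 was at -0.08 ± 0.1 SE (adjusted p = 0.675) and SLC30A1 at -0.08 ± 0.07 SE (adjusted p = 0.55). With overexpression 1 rose and 2 fell of 8, with a median of 0.03. SLC30A9, a mitochondrial zinc transporter, fell by 0.53 ± 0.1 SE (edgeR adjusted p = 0.00216), and MTF1 was at 0.16 ± 0.11 SE (adjusted p = 0.309) and SLC30A1 at 0.01 ± 0.12 SE (adjusted p = 0.957). Between the control lines, where 76% of all tested genes were called, all 8 differed, 3 higher and 5 lower in H358. MTF1 was 0.49 higher there and SLC30A1 0.64 lower (log2 difference -0.64, adjusted p = 2.31e-07), beside the 17.2-fold higher MT2A.

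Of the 14 zinc importers the knockdown tested 12 and the overexpression 11. In A549 shRAD21, 2 rose and 3 fell, with a median of -0.13. SLC39A9 rose by 0.55 ± 0.08 SE (edgeR adjusted p = 8.17e-05). SLC39A5, the other of the 2, went from 17 counts to 72 summed over 3 libraries, a log2 difference of 2.02. It passed the filter on low counts through A549 shRAD21 alone, so its call adds nothing to this description. SLC39A11 fell by 0.37 ± 0.08 SE (adjusted p = 0.00342). In H358 shRAD21, 1 rose and 1 fell, with a median of 0.17. SLC39A14, which also takes up iron and manganese, rose by 0.33 ± 0.06 SE (adjusted p = 0.00279), and SLC39A10 fell by 0.33 ± 0.1 SE (adjusted p = 0.0421), a call lost without any 1 of the 6 H358 libraries. With overexpression 2 rose and 2 fell, with a median of 0.06, among them SLC39A14 with a rise of 0.37 ± 0.07 SE (adjusted p = 0.00231) and SLC39A7, which releases zinc from the endoplasmic reticulum, with 0.46 ± 0.1 SE (adjusted p = 0.00466). Between the control lines, 3 were higher and 4 lower in H358, where 76% of all tested genes were called. SLC39A4, the main intestinal zinc importer, was 2.76 ± 0.11 SE higher in H358 (edgeR adjusted p = 4.04e-14).

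Of the copper genes 12 of 14 were tested in the knockdown. Of these, 1 rose and 2 fell in A549 shRAD21, where the copper chaperone ATOX1 fell by 0.75 ± 0.14 SE (edgeR adjusted p = 0.000544) and the copper pump ATP7B rose by 0.73 ± 0.12 SE (adjusted p = 0.000179). In H358 shRAD21, 0 rose and 3 fell. With overexpression, of 11 tested, 0 rose and ATOX1 alone fell, by 0.39 ± 0.13 SE (adjusted p = 0.0426), a call lost without any 1 of the 3 EV libraries or RAD21OE replicate 1 or 2 (up to 0.169). Between the control lines 1 was higher and 7 were lower in H358, beside 76% of all tested genes called. The 1 higher, STEAP4, had 0 counts in A549 shNC and 82 in H358 shNC, summed over 3 libraries. It passed the filter on low counts through H358 alone, so its call adds nothing to this description.

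**Figure D4:**
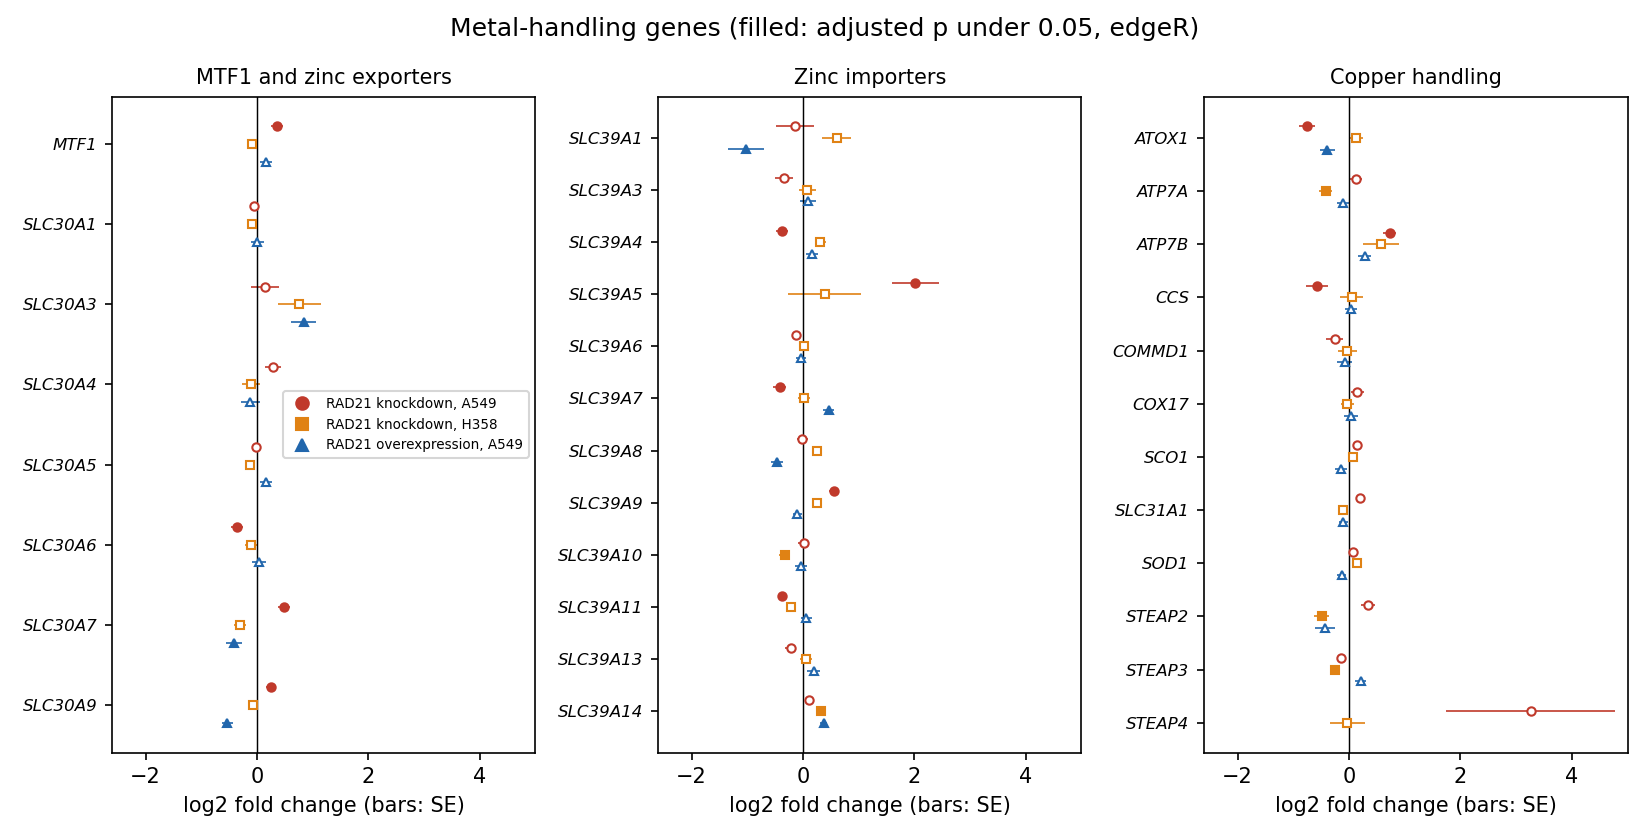
Log2 fold change (horizontal axis; bars are SE) of MTF1 and the zinc exporters, the zinc importers and the copper genes that were tested, in the knockdown in A549 and H358 and in the overexpression; filled symbols passed an adjusted p of 0.05 in edgeR. MTF1 is filled in A549 knockdown alone, SLC30A1 lies near 0 in all 3 comparisons, and each panel holds filled symbols on both sides of 0.

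Pathways that are also known to act on metallothionein genes were followed in the same way. Over all tested genes, 14.4% were called higher and 10.9% lower in the A549 knockdown. The shares were 3.78% and 4.62% in the H358 knockdown, and 14.1% and 13.7% in the overexpression. Of 11 genes of the NRF2 oxidant response, 3 rose and 3 fell in A549 shRAD21 (median -0.08), with GCLM 0.41 ± 0.07 SE higher and GCLC 0.63 ± 0.06 SE lower (log2 change -0.63), subunits of the same glutathione synthesis enzyme. In RAD21OE, where MT2A fell, 8 of the 11 rose and 0 fell (median 0.34), led by OSGIN1 at 1.99 ± 0.11 SE (edgeR adjusted p = 1.22e-07) and the quinone reductase NQO1 at 0.65 ± 0.07 SE (adjusted p = 4.59e-05). In H358 shRAD21, 0 rose and 4 fell. All 11 were lower in H358 shNC than in A549 shNC (median -2.18), opposite to MT2A. Of all tested genes, 36.8% were called lower between these lines. Of 10 heat shock genes, 2 rose and 1 fell in A549 shRAD21, 1 rose in H358 shRAD21 and 7 rose in RAD21OE (median 0.43). Of 9 tested glucocorticoid response genes, 1 rose and 2 fell in A549 shRAD21, 1 rose and 3 fell in H358 shRAD21, and 1 rose and 1 fell in RAD21OE.

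Cell type markers were checked beside these results. The 8 lung epithelial markers summed to 7130 to 7550 CPM in A549 shNC and 11300 to 14000 CPM in A549 shRAD21, 8240 to 8440 CPM in EV and 10400 to 13600 CPM in RAD21OE, and 4620 to 4940 and 4750 to 4960 CPM in H358 shNC and shRAD21. Of the 7 tested in the knockdown, 6 rose in A549 and 2 in H358, where 14.4% and 3.78% of all tested genes were called higher. NKX2-1, 1 of the 6, had 3 counts in A549 shNC and 26 in A549 shRAD21, summed over 3 libraries. It was tested there only because H358 carried it past the filter on low counts. Of the 6 tested in the overexpression, KRT18 and KRT8 rose and CDH1 fell, beside 14.1% of all tested genes called higher and 13.7% lower. In A549 the sum was mostly KRT8 (4680 CPM in shNC) and KRT18 (2574 CPM). Between the control lines those 2 were lower in H358 and 4 of the 7 tested were higher, against the sum. Of all tested genes, 39.1% were called higher and 36.8% lower there. NKX2-1 is 1 of those 4. It passed the filter on low counts through H358 alone, so its call between the lines adds nothing to this description. EPCAM, KRT19 and CDH1 averaged 539.5, 1499 and 499.8 CPM in H358 shNC and 3.649, 8.786 and 66.73 CPM in A549 shNC. The part of these markers in the result on MT2A and MT1F was not tested. NKX2-1, a defining lung factor, averaged 121.5 CPM in H358 shNC but 0.0643 CPM in A549 shNC, and the surfactant gene SFTPB was near 0 in both lines, at 0.112 and 0.0649 CPM. Sums over groups for fibroblast markers (15.8 to 47.6 CPM, mostly COL1A1), immune markers (2.86 to 9.4 CPM) and endothelial markers (0.136 to 18.2 CPM) were low throughout, and CD3E was at 0 in all 4 A549 groups.

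Genes around the cluster were examined for changes of their own. Within 500 kb of the outermost members the annotation holds 38 other genes, of which the knockdown tested 13 and the overexpression 11. In A549 shRAD21, 2 of the 13 rose and 0 fell (median 0.1), and in H358 shRAD21 1 rose and 1 fell. Of all tested genes, 14.4% were called higher and 10.9% lower in A549, and 3.78% and 4.62% in H358. The 2 of 13 in A549 is near the share over all genes. NLRC5, a regulator of MHC class I genes 305 kb from the cluster, rose by 0.91 ± 0.14 SE (edgeR adjusted p = 9.63e-05). It also rose in H358 shRAD21, by 0.71 ± 0.1 SE (adjusted p = 0.000279), where no metallothionein was called. In H358 shRAD21, HERPUD1, a gene of the endoplasmic reticulum stress response, fell by 0.46 ± 0.08 SE (adjusted p = 0.00135). The nearest tested gene, NUP93 at 45.9 kb, was not called in either knockdown.

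With overexpression 3 of 11 neighbours rose and 1 fell (median 0.12), beside 14.1% of all tested genes called higher and 13.7% lower. HERPUD1 rose by 0.46 ± 0.09 SE (edgeR adjusted p = 0.00188), CPNE2 by 0.41 ± 0.1 SE (adjusted p = 0.00928; 0.062 without EV replicate 2) and NUP93 by 0.25 ± 0.09 SE (adjusted p = 0.0424). The call of NUP93 was lost without any 1 of the EV libraries or RAD21OE replicate 2 (up to 0.177). BBS2 fell by 0.4 ± 0.11 SE (adjusted p = 0.02), a call lost without EV replicate 2 or 3 or RAD21OE replicate 2 (up to 0.125). Between the control lines 3 of 13 were higher and 6 lower in H358 (median -0.09), beside 76% of all tested genes called. GNAO1, a G protein subunit gene, was 5.90 higher there on the log2 scale. It passed the filter on low counts through H358 alone, so its call adds nothing to this description. NLRC5 was 2.52 ± 0.13 SE higher in H358 (edgeR adjusted p = 2.15e-12), beside 4.10 for MT2A. HERPUD1 was the one neighbour whose knockdown change was called different between the lines (H358 minus A549, -0.4 ± 0.11 SE, adjusted p = 0.0224), a call lost without A549 shNC replicate 1, A549 shRAD21 replicate 1 or 2, H358 shNC replicate 1 or 3, or any 1 H358 shRAD21 library (up to 0.089). Over all tested genes, 17.6% were called different.

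**Figure D5:**
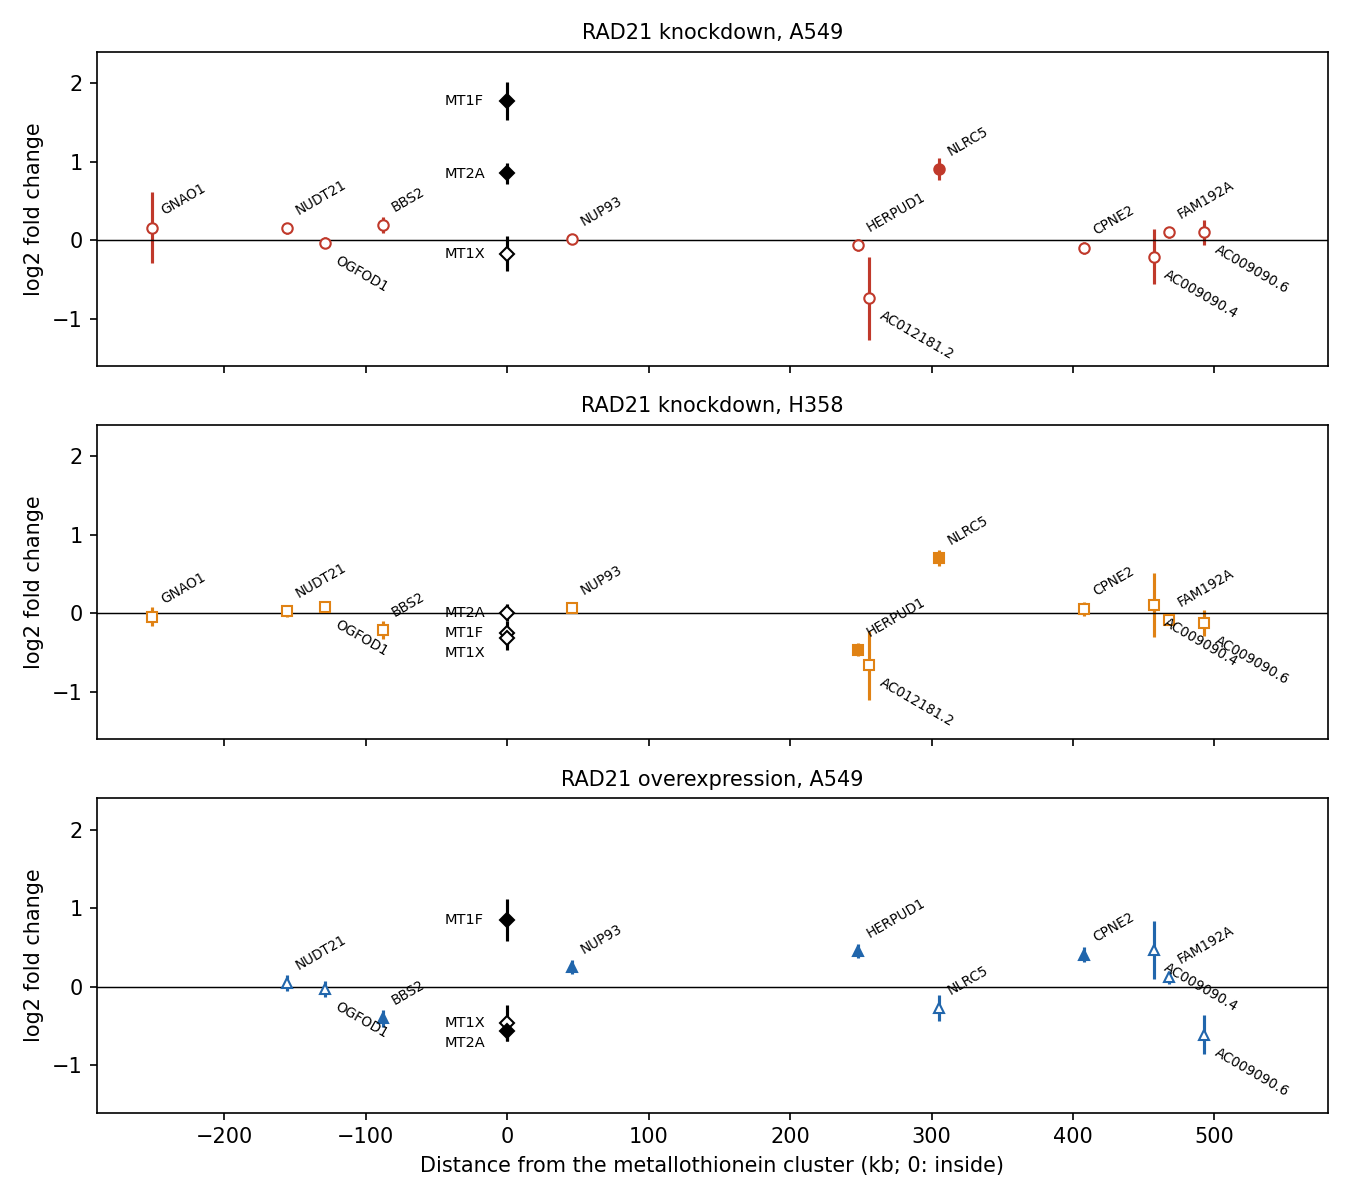
Log2 fold change (vertical axes; bars are SE) of the tested genes reported here against distance from the metallothionein cluster in kb, with MT2A, MT1F and MT1X as diamonds at 0 and MT1E, at the same place, left out; filled symbols passed an adjusted p of 0.05 in edgeR. In A549 knockdown MT1F lies above all neighbours shown and MT2A above all of them but NLRC5, which is filled in both lines, and no metallothionein is filled in H358.

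The genes whose pattern was most like that of MT2A were ranked by Pearson's r of log2 CPM over the 12 knockdown libraries, after the mean of each line had been subtracted, among 11596 protein-coding genes with a mean of at least 4 CPM. OCIAD2 (r = 0.959), TMEM98 (0.955), TFCP2L1 (0.942), CDKN1B (0.934) and SLPI (0.934) led. These values are a description of 12 libraries that share the same groups, and they carry no test. TMEM98 and TFCP2L1 had 0 or 1 counts in each H358 library, so their r rests on the 6 A549 libraries. Over the 6 overexpression libraries, which did not enter the ranking, r with MT2A was 0.967 for OCIAD2, 0.851 for TMEM98 and 0.752 for CDKN1B, but -0.0351 for TFCP2L1 and -0.576 for SLPI. In A549 shRAD21, whose libraries chose these genes, the log2 difference from shNC was 0.65 for OCIAD2, 0.97 for CDKN1B, an inhibitor of cyclin-dependent kinases, and 2.05 for SLPI, given as a description. In RAD21OE, OCIAD2 fell by 0.54 ± 0.11 SE (edgeR adjusted p = 0.00328) and CDKN1B by 0.51 ± 0.12 SE (adjusted p = 0.00884). SLPI went the other way and rose by 0.63 ± 0.2 SE (adjusted p = 0.0327), a call lost under 5 of 13 alternatives (up to 0.119). TMEM98 at -0.14 ± 0.13 SE and TFCP2L1 at -0.05 ± 0.14 SE were not called (adjusted p = 0.447 and 0.801). By the same measure MT1F had r = 0.875, MTF1 0.669 and MT1X 0.0431 with MT2A.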

How the data were processed

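Gene expression was measured by RNA sequencing of total RNA. Per the labels' protocols, TRIzol was used for extraction and a VAHTS Universal V6 kit for the libraries. The sources used here do not say whether reads are stranded or how reads that fit several genes were treated. The authors deposited 2 tables of raw counts of reads per gene, 1 for the 12 knockdown libraries and 1 for the 6 overexpression libraries. As tools, the submitters' processing notes list fastp, HISAT2 2.0.5 and featureCounts 1.5.0-p3, and as build hg38, with no role given. Every count column matched a sample (0 unmatched). The deposited tables also give each gene's exon length, used for levels per kilobase.

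Each table was fitted separately with 1 mean per group, in R 4.3.3 with edgeR 4.0.16: filterByExpr, TMM factors, and the two-sided quasi-likelihood F-test. P-values were adjusted by Benjamini-Hochberg over all genes that a comparison tested, and genes with an adjusted p under 0.05 are called. Common dispersion gave a biological coefficient of variation of 0.0864 (knockdown) and 0.0981 (overexpression). Compared were shRAD21 with shNC in A549 and in H358, the difference of these, H358 shNC against A549 shNC, and overexpression in A549. The comparisons within the knockdown share control libraries. Where a group had 0 counts, a fold is a bound against 3 counts over the group, which covers counting error only. The fit was checked on simulated counts. Figures were drawn with Python 3.11.15 and matplotlib 3.10.9.

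The members, the gene lists and the alternatives were chosen with earlier results of these data known. Named are the 6 members in every comparison, RAD21, MTF1, SLC30A1, SLC39A10, from each list up to 2 risen and 2 fallen genes per comparison with the smallest adjusted p, the called genes within 500 kb of the cluster (1 of them, although counted, is not reported here), the 5 genes most like MT2A (prior count 2), and marker genes given as a check. MT1A, MT1L and MT1JP were picked once their counts were known. As alternatives served DESeq2 1.42.0 (size factors, Wald test), limma-voom (limma 3.58.1), no filter beyond a total above 0, at least 10 CPM in 3 libraries, a block for the replicate number, only the 6 libraries compared, and leaving out each library. Library totals alone and a correction of each library's trend on GC content and exon length were added after seeing the data.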

Additional observations from a re-analysis of the deposited data

Results flagged for a closer look

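These genes changed differently with knockdown in the 2 lines, by the contrast of the same edgeR fit (log2 change in H358 minus that in A549, Benjamini-Hochberg adjusted p). Among the metallothioneins, MT1F differed by -2.02 ± 0.29 SE (adjusted p = 9.02e-05), from 1.77 in A549 to -0.25 in H358. MT2A differed by -0.84 ± 0.17 SE (adjusted p = 0.00205), from 0.85 to 0.01. Their regulator MTF1 differed by -0.44 ± 0.14 SE (adjusted p = 0.0364), a call lost under 13 of 20 alternatives (up to 0.128). Of the metal transporters, the zinc exporter SLC30A7 differed by -0.79, the metalloreductase STEAP2 by -0.84, the zinc importer SLC39A4 by 0.69 and the copper chaperone ATOX1 by 0.88.

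Of the oxidant response genes, the cystine transporter subunit SLC7A11 differed by -1.32 ± 0.14 SE (adjusted p = 4.96e-06), from 0.34 in A549 to -0.98 in H358. NQO1 differed by -0.38, GCLM by -0.32 and GCLC by 0.48. Of the ferritin chains, FTL differed by -0.37, from 0.19 in A549 to -0.18 in H358. FTH1 differed by 0.36, from -0.48 to -0.12. BEST1 on the other strand overlaps 62.4% of the exon bases of FTH1. Of the heat shock genes BAG3 differed by 0.67, HSPA8 by 0.23 and HSPD1 by -0.25, and of the glucocorticoid response genes KLF9 by -0.75 and TSC22D3 by -0.45. The calls of GCLM, HSPA8, HSPD1, KLF9 and TSC22D3 were lost under at least 1 alternative (adjusted p up to 0.535, 0.14, 0.171, 0.0511 and 0.0753).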

How the results depend on the processing

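MT2A and MT1F kept their calls in the A549 knockdown and in the difference between the lines, and MT2A its call in the overexpression, under every alternative run. Their log2 values ranged from 0.76 to 1.00 (MT2A) and 1.57 to 2.05 (MT1F) in the A549 knockdown, and from -0.66 to -0.45 for MT2A in the overexpression (adjusted p up to 0.0437). The members called in the overexpression were 1 in place of 2 with at least 10 CPM in 3 libraries (MT1F no longer tested), with DESeq2's Wald test and with the replicate block (MT1F adjusted p = 0.0515), and 1 to 2 on leaving out 1 library. Same-numbered libraries shared only a number (correlation of deviations -0.0369 to 0.0674). The replicate block changed no other member's call. In the H358 knockdown 1 member in place of 0 was called on only the 6 libraries compared. Signs turned for MT2A in H358 with the GC and length correction (-0.02) and on leaving out 1 library (-0.13 to 0.11), for MT1E there (-0.07 to 0.11) and for MT1X in the difference between the lines (-0.31 to 0.07 on leaving out 1 library), none of them called. The cause was not tested. STEAP3 between the control lines was 0.03 with library totals alone, which moved the median of all genes there from 0.05 to 0.27. Of 138 results on other named genes, 38 lost their call under at least 1 alternative. Over all genes, calls in the A549 knockdown went from 4780 to 8430 without shRAD21 replicate 3 and to 3066 on only the 6 libraries, and in its difference from H358 from 3325 to 7348 without that replicate. In the H358 knockdown they went from 1591 to 4473 on only the 6 libraries, 3265 with the GC and length correction, 1038 with the block and 755 to 874 on leaving out 1 library, and in the overexpression from 4297 to between 2177 and 5536 on leaving out 1 library. With a prior count of 0.5, 3 of the 5 genes most like MT2A stayed the same. At this depth, MT1F in A549 rested on 13 to 65 counts a library.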
